A study of Mus with 2 samples.

Results

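Neutrophil granule proteins were followed at the mRNA level in cultures of mouse bone marrow derived macrophages (BMDMs). The 10 genes were fixed by name, namely Elane, Mpo, Prtn3 and Ctsg of the azurophil (primary) granules, Camp, Ltf, Ngp and Lcn2 of the specific (secondary) granules, and S100a8 and S100a9, which encode the subunits of calprotectin. Together they had 11 of the array's 39429 probes. They make up 10 of the 20144 genes that could be named on the array, and 13533 of these were clear of background on 1 array or on both, all 10 granule protein genes among them. The cells came from bone marrow of male C57BL6/J mice that the study's methods give as 10 weeks old, and how many mice were used is not given in the sources used here. All cultures had 7 d of M-CSF at 10 ng/mL and then IL-4 at 10 ng/mL, the condition named M2. The DMSO culture received the solvent for the 24 h of IL-4, and the GW4064 culture received 10 µM of GW4064, a synthetic agonist of the farnesoid X receptor (FXR). The free-text description of the GW4064 sample repeats that of the DMSO sample, while its title, source and treatment fields all name GW4064.

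Neutrophils store antimicrobial proteins and proteases in granules that are filled one after the other while the cell matures in the bone marrow. Azurophil granule proteins are made at the promyelocyte stage, specific granule proteins at the myelocyte stage, and calprotectin accumulates in the cytosol of late precursors and mature cells. The transcription factors C/EBPα, C/EBPε and GFI1 are known to drive these stages, and monocyte precursors share part of the early programme. M-CSF culture of whole marrow favours macrophages, so that granulocyte precursors and their transcripts dwindle during it, whereas Lcn2, S100a8 and S100a9 can also be made by macrophages.

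There was 1 array per condition, so that replicate error could not be estimated, no test was made, and precision is limited by the number of arrays. Each array gave the brightness of Cy3-labelled RNA at a spot, corrected for background by the scanner software. Differences are log2 of the GW4064 signal over the DMSO signal after the 75th percentile of each array (signals of 1209 and 1265) had been set to 0. The errors given are those the scanner software assigned to both signals, combined on the log2 scale. As an alternative, background was corrected with normexp and an offset of 50, which draws dim signals together. The software errors describe the reading of a spot and not the spread between cultures. Signals of different probes depend on the probe, so that levels are compared within a probe and not between genes. In RNA from a whole culture, fewer cells of a type and less RNA per cell cannot be told apart.

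Of the 10 genes, 9 were well above background on both arrays, and all 9 had a lower signal with GW4064. Among all 13533 genes, 48.2% were lower by any amount. The differences of the 9 genes lay between -0.94 for Mpo and -0.32 for Camp, with a median of -0.72. Over all 10 genes the median was -0.69, against 0.01 over all genes, whose 5th and 95th percentiles were -0.65 and 0.53. None of the 9 was 2-fold or more lower, and the bound of Prtn3 stayed under 2-fold, so that its own size is not known. Counted in the same way, 2-fold is a size that 2.71% of all genes reached as decreases and 2.04% as increases. At 1.5-fold or more, 6 genes were lower (Mpo, S100a9, Ltf, Ngp, Lcn2 and Ctsg), against 5.56% of all genes and 4.67% of those with a DMSO signal between 50 and 10000, a band chosen after the values were seen. At its bound Prtn3 was not 1.5-fold or more higher, against 4.39% of all genes that were. Of the 10 probes measured on both arrays, 9 differed by more than the software's error and 7 by more than 2 times that error. The smallest of these errors was 0.20. The share of all probes past the same limits was not computed, so these counts do not set the granule protein genes apart.

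**Figure D1:**
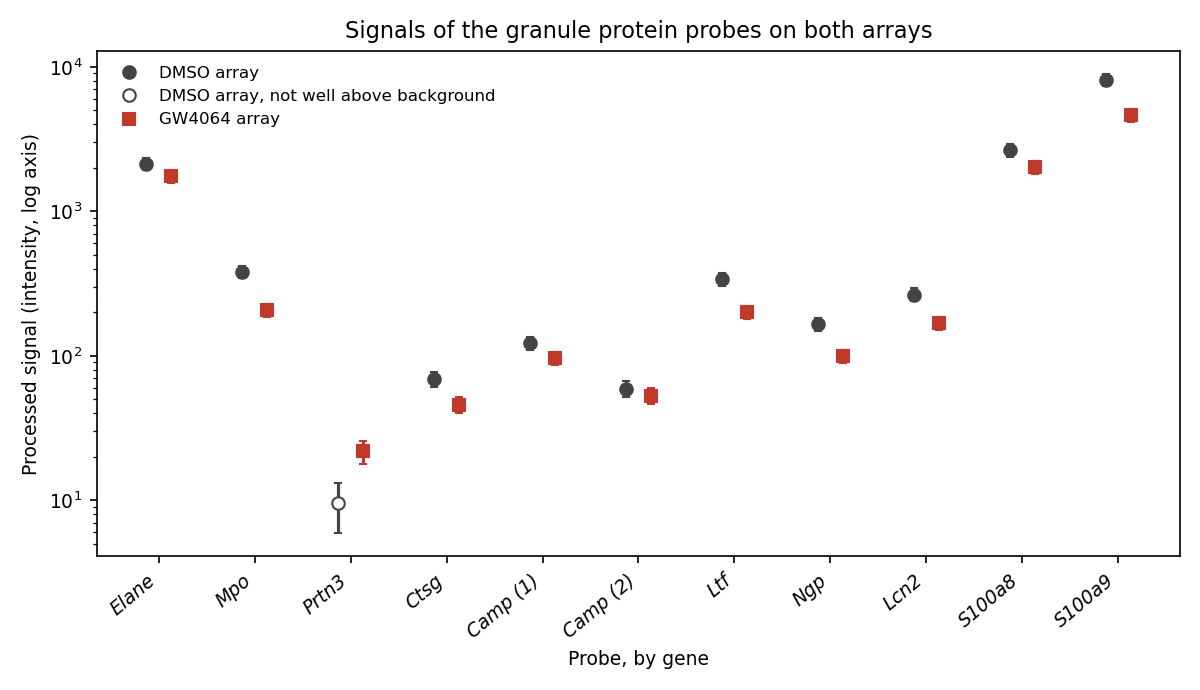
Processed signal (intensity, log axis) of each of the 11 probes on the DMSO array (circles) and the GW4064 array (squares), with the error of the scanner software as bars. The GW4064 signal lies below the DMSO signal for every probe apart from that of Prtn3, whose DMSO signal (open circle) was not well above background.

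Among the azurophil granule genes, the serine proteases showed unequal values. Elane (RefSeq transcript NM_015779) encodes neutrophil elastase. Its probe had a signal of 2130 with DMSO and 1758 with GW4064, a difference of -0.34 with an error of 0.20. The GW4064 array was therefore lower by 1.68 times the error, and 9.96% of all genes were as low or lower. Ctsg (NM_007800) encodes cathepsin G. Its signal was 69.0 with DMSO and 45.9 with GW4064, a difference of -0.65 with an error of 0.25, or 1.57-fold lower. Both signals were dim, and 4.94% of all genes were as low or lower.

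Prtn3 (NM_011178), which encodes proteinase 3, was the only member with a higher signal on the GW4064 array. It read 9.59 on the DMSO array, which was not well above background, and 21.8 on the GW4064 array, where the lowest signal well above background on that array was 15.1. It was therefore at least 1.33-fold higher, a difference of at least 0.41. The software's error of 0.61 belongs to the difference without the bound, 1.12, which rests on the DMSO signal not well above background. The bound itself was smaller than that error. Its spot had 2 other spots within 300 µm that differed 8-fold or more between the arrays, and it had no value once spots in such damaged areas were removed.

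Mpo (NM_010824) encodes myeloperoxidase, the heme enzyme of the azurophil granules that makes hypochlorous acid from hydrogen peroxide and chloride. Its signal was 381 with DMSO and 208 with GW4064. The difference of -0.94, with an error of 0.21, was the largest decrease among the 10 genes, 1.92-fold (S100a9 had a larger one after normexp), and 3.01% of all genes were as low or lower.

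The specific granule genes were all lower with GW4064. Ltf (NM_008522) encodes lactoferrin, an iron-binding protein. Its signal was 338 with DMSO and 200.3 with GW4064, a difference of -0.82 with an error of 0.21. Its spot lay in a damaged area, with 5 other 8-fold differences within 300 µm, so that it too had no value once those areas were left out. Ngp (NM_008694) encodes neutrophilic granule protein, which belongs to the cystatin-like family of cathelicidins. Its signal was 165 with DMSO and 99.8 with GW4064, a difference of -0.79 with an error of 0.21, and -0.52 after normexp.

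Lcn2 (NM_008491) encodes lipocalin 2, which takes iron away from bacteria by binding their siderophores. The DMSO signal was 266 and the GW4064 signal 168. This gave a difference of -0.72 with an error of 0.21, or 1.65-fold lower. Camp (NM_009921) encodes the cathelicidin antimicrobial peptide and was the only member with more than 1 probe. The first probe read 123 with DMSO and 96.4 with GW4064, a difference of -0.42 with an error of 0.22. The second read 59.3 and 53.1, a difference of -0.23 that was smaller than its error of 0.27. Both probes pointed the same way, and their mean of -0.32 was the smallest decrease among the 9 genes.

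S100a8 (NM_013650) and S100a9 (NM_009114) encode calcium-binding proteins that pair to form calprotectin, which withholds zinc and manganese from microbes. S100a9 had a signal of 8136 with DMSO and 4614 with GW4064, a difference of -0.88 with an error of 0.20, or 1.85-fold lower. S100a8 had a signal of 2638 with DMSO and 2023 with GW4064, a difference of -0.45 with an error of 0.20, or 1.36-fold lower. Both subunits were thus lower by more than 2 times the error, and the gap between their differences was not tested.

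**Figure D2:**
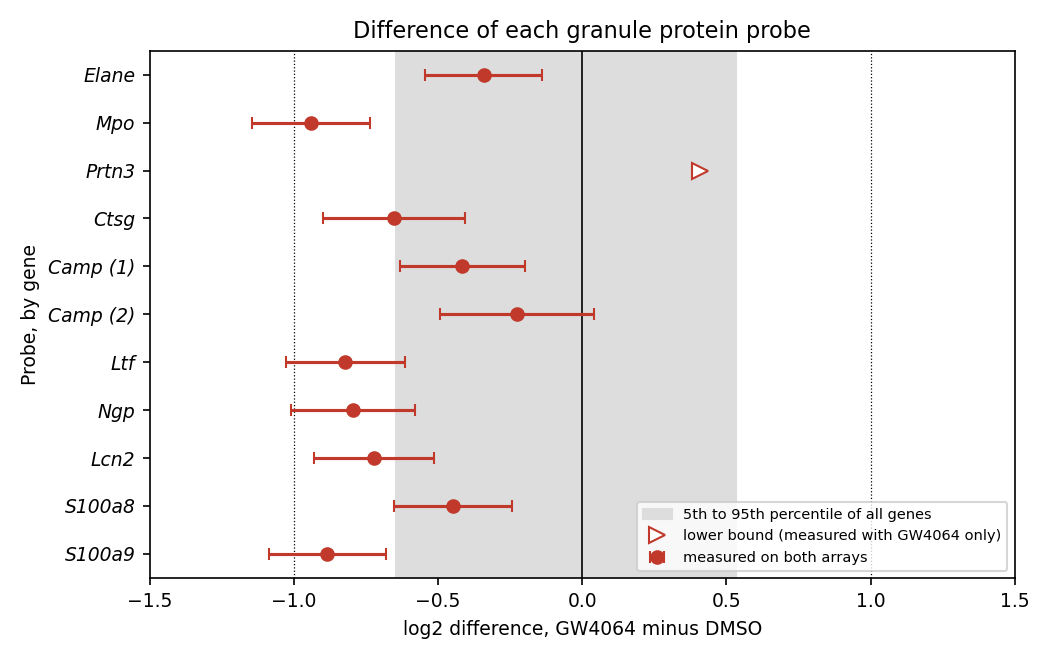
Log2 difference (GW4064 minus DMSO) of each of the 11 probes, with the combined error of the scanner software as bars and the range between the 5th and 95th percentiles of all genes shaded (-0.65 to 0.53). Mpo, Ctsg, Ltf, Ngp, Lcn2 and S100a9 lie at or left of the shaded range, and Prtn3 is drawn as a lower bound (triangle).

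The spots themselves gave no other mark. Each of the 11 probes was printed at 1 spot, and 0 of these spots were marked as uneven or as outliers on either array. The median difference of the 85 to 120 spots printed around each of them lay between -0.16 and 0.09. Apart from Prtn3 and Ltf, the spots had 0 or 1 other 8-fold differences within 300 µm, and all 8 genes measured outside the damaged areas were lower with GW4064. Genes of the other lists are not all marked where their spots lay in damaged areas. For probes with 5 or more usable copies, well above background at every one, the median SD of the log2 difference over copies was 0.077, and it was 0.21 where no copy was above background.

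The direction of the 9 genes was the same under every setting tried, but the sizes moved with the background correction and with the scaling. Settings that only keep or drop spots or probes could not change most of these values, since each probe had 1 unmarked spot. The normexp correction left 3 genes 1.5-fold or more lower, namely S100a9 (-0.91), Mpo (-0.76) and Ltf (-0.63), against 2.31% of all genes. Centring on the spike-in RNA, in place of the 75th percentile, moved the median of all genes to -0.17, and each difference given here at the 75th percentile would be lower by 0.17 on that scale. The granule protein genes then had a median of -0.86, with 7 of them 1.5-fold or more lower against 8.15% of all genes. Under that scaling Mpo (-1.11) and S100a9 (-1.06) passed 2-fold, as did 503 of all 13533 genes as decreases.

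**Figure D3:**
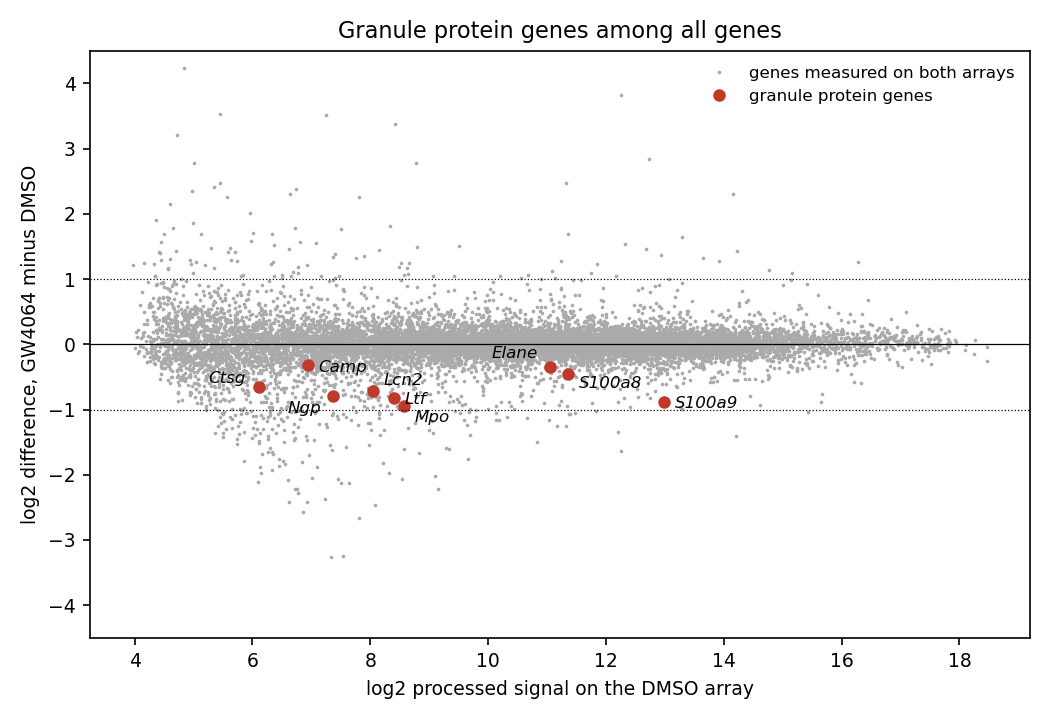
Log2 difference (GW4064 minus DMSO) against the log2 signal on the DMSO array, with 1 grey dot for each gene measured on both arrays and the 9 granule protein genes measured on both arrays in red. The red points lie below 0, between -0.94 and -0.32, at signals from dim to bright, and dotted lines mark 2-fold.

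On the chromosomes, Elane and Prtn3 are direct neighbours among protein-coding genes in the RefSeq annotation of GRCm38.p6, as are S100a8 and S100a9, and Camp, Ngp and Ltf lie on chromosome 9. No coordinates are given, since the array was designed on another build. The members had 16 other protein-coding neighbours, counting 1 on each side. Of these, 10 were measured, 2 were lower and 8 higher with GW4064, and 0 were 1.5-fold or more lower. Their differences lay between -0.19 for Tspoap1, beside Mpo, and 0.73 for Ccrl2, beside Ltf, and the median was 0.07. Cfd, which follows Elane, and Mcpt8 and Gzme on either side of Ctsg were not well above background on either array.

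Other genes of azurophil granules lay near the median of all genes. Of 13 listed genes, 11 were measured, 5 were higher and 6 lower, 0 differed by 1.5-fold, and the median was -0.05. These proteins are also found in the lysosomes of macrophages. Ctsd (cathepsin D) had a difference of 0.21, Cd63 (a granule and lysosome membrane protein) of -0.06, Gusb (beta-glucuronidase) of -0.05 and Man2b1 (lysosomal alpha-mannosidase) of -0.16. Lyz2, encoding lysozyme, differed by 0.06, and Ctsc, the protease that activates the granule serine proteases, by 0.09. Bpi and Prss57, whose proteins are more restricted to granulocytes, were not well above background on either array.

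For the other genes of specific and gelatinase granules, 15 of 22 were measured, 8 higher and 7 lower, with a median of 0.02. The gelatinase Mmp9, printed at 10 spots, was the 1 gene 2-fold or more higher, with signals of 437 and 3152 and a difference of 2.78. Slpi, which encodes an inhibitor of elastase and cathepsin G and is stored in specific granules, was the 1 gene 2-fold or more lower. Its signal was 891 with DMSO and 464 with GW4064, a difference of -1.01, which became -0.94 after normexp. Pglyrp1, a peptidoglycan recognition protein, was at least 1.80-fold lower, with a signal of 26.0 on the DMSO array and one too close to background to be measured on the GW4064 array. Its difference after normexp was only -0.27.

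In the same list Mmp8, the neutrophil collagenase, had signals of 400 and 424 and a difference of 0.02. Hp, encoding haptoglobin, had -0.15. The NADPH oxidase subunit Cyba had 0.06, the chitinase-like gene Chil3 0.07, Adam8 -0.07 and the integrin chain Itgb2 0.09. Values between 0 and 0.17, here and in the lists that follow, turn negative under the spike-in centring. Fcnb, Cd177, Itgb2l, Mmp25 and Chil1 were not well above background on either array.

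Genes for packing and releasing granules lay near it as well. All 13 with a probe were measured, 7 higher and 6 lower, and 0 differed by 1.5-fold. Srgn encodes serglycin, the proteoglycan core that holds proteases in granules, and had a difference of 0.47, from 29495 to 42834. Ap3b1, Vamp8 and Stxbp2, which act in vesicle sorting and fusion, had -0.13, 0.17 and -0.06.

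Of 14 listed inhibitors of granule proteases, 6 were measured, 3 higher and 3 lower, with a median of -0.14. Slpi was one of the 2 that were 2-fold or more lower. The other, A2m (alpha-2-macroglobulin), read 109 with DMSO and was not well above background with GW4064, at least 7.56-fold lower, at a spot with 6 other 8-fold differences within 300 µm, and had -1.06 after normexp. Serpinb1a, a cytosolic inhibitor of elastase, had 0.16, Serpinb6a 0.02 and Serpinb6b -0.29. Among 13 receptors and surface partners of granule proteins, 9 were measured, 6 higher and 3 lower, and 0 differed by 2-fold with dim values taken at their bounds. The 1 gene 1.5-fold or more lower was Ager, the receptor for advanced glycation end products that also binds S100 proteins. It was at least 1.51-fold lower, with a signal of 21.9 on the DMSO array and one not above background with GW4064. After normexp the difference of Ager was only -0.22. Cd36 had 0.02, the integrin chain Itgam 0.09, the lactoferrin receptor Lrp1 -0.15, the ATP receptor P2rx7 0.15, and Slc22a17, a receptor for lipocalin 2, 0.19.

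Of 15 other genes of the S100 family, which encode small calcium-binding proteins, 11 were measured, 4 higher and 7 lower, 0 of them by 2-fold with dim values taken at their bounds, and the median was -0.15. S100a6 had -0.32, S100a4 a mean of -0.27 over its probes, S100a10 -0.16 and S100a11 -0.0047. The 1 gene that was 1.5-fold or more lower was S100b, at least 1.80-fold, with a signal of 26.0 on the DMSO array. After normexp the difference of S100b was only -0.33.

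Of 22 transcription factors of granulocyte development, 21 were measured, 11 higher and 10 lower, with a median of 0.03, and Cebpe, Rarb and Myb were 2-fold or more higher. Cebpe encodes C/EBPε, known to be needed for specific granule genes such as Ltf, Camp and Ngp. It read 107 with DMSO and 586 with GW4064, a difference of 2.39 with an error of 0.22, and 1.74 after normexp. On the same arrays the 4 specific granule genes were lower.

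Cebpa, which acts at the earlier step, read 7839 and 6062, a difference of -0.44, at a spot with 4 other 8-fold differences within 300 µm. Cebpb had 0.11, Cebpd -0.18 and Cebpg -0.06. Of the retinoic acid receptors, Rarb was higher by a mean of 4.23 over its 2 probes, one of them a bound, while Rara had a mean of -0.28 and Rarg 0.14. Myb, a factor of early progenitors, read 34.8 and 118, a difference of 1.69, at a spot with 2 other 8-fold differences nearby, and 0.86 after normexp. Gfi1, which acts with C/EBPε in neutrophil maturation, read 34.5 and 45.8, a difference of 0.34 with an error of 0.30, and 0.09 after normexp.

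Markers of granulocyte precursors and of mature neutrophils gave no common direction. Of 18 precursor genes, 16 were measured, 11 higher and 5 lower, with a median of 0.20. Besides Cebpe and Myb, Flt3, the receptor of early progenitors and dendritic cells, was at least 4.94-fold higher at 1 of its 2 probes. The other probe was well above background on neither array. The measured spot had 3 other 8-fold differences within 300 µm, and Flt3 had a difference of 0.72 after normexp. Ms4a3, which marks granulocyte and monocyte progenitors, was not well above background with GW4064 and at least 1.39-fold lower (-0.23 after normexp). Kit, the stem cell factor receptor, had -0.74 at dim signals of 37.9 and 23.8, and -0.29 after normexp. Among the brightest of the list, Ccl9 had 0.46, Calr 0.33 and Igsf6 0.34. Whether these bright signals came from precursors or from the macrophages was not tested.

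Of 24 other neutrophil genes, 11 were measured, 7 higher and 4 lower, with a median of 0.03 (-0.08 after normexp). Csf3r, the receptor for G-CSF, differed by 0.01 at signals of 58516 and 61730, and by -0.08 after normexp. Cxcr2, a chemokine receptor of neutrophils, differed by 0.34 at dim signals of 35.5 and 47.1, and by -0.02 after normexp. Ifitm6 was at least 3.07-fold higher, from a signal not well above background with DMSO, and had 0.64 after normexp. Wfdc21 was 2.09-fold lower, with dim signals of 55.9 and 28.4 and a spot in a damaged area, and had -0.46 after normexp. Stfa1 was at least 2.04-fold lower (-0.60 after normexp), while Stfa2 had 0.49 (-0.09 after normexp), both at spots in damaged areas. These stefins are so alike in sequence that a probe may read several of them. In the 7 surface and granule markers chosen for neutrophils, Csf3r, Cxcr2 and Mmp8 were the 3 measured, with summed signals of 58952 and 62202, most of which is Csf3r. Retnlg, Cd177 and Itgb2l were not well above background on either array, and Ly6g had no probe matched here.

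**Figure D4:**
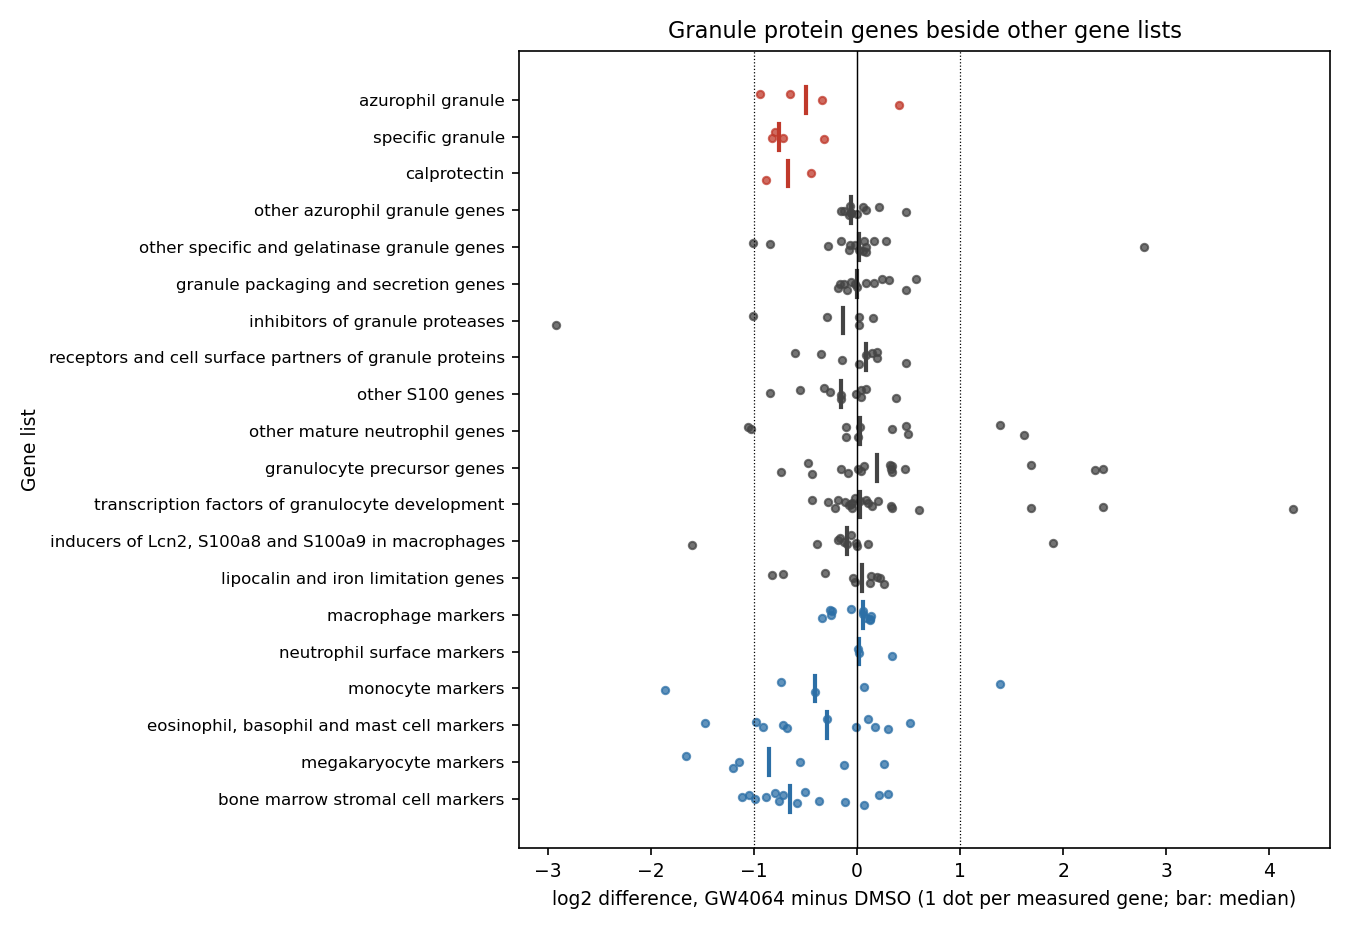
Log2 difference (GW4064 minus DMSO) of each measured gene, grouped by list, with the median of the list as a vertical bar. The azurophil, specific and calprotectin groups (red) have medians of -0.50, -0.76 and -0.67, the other granule and neutrophil lists (grey) lie between -0.15 and 0.20, and cell type markers are in blue.

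Lcn2, S100a8 and S100a9 are also induced in macrophages by inflammatory signals. Of 12 genes listed for these signals, 11 were measured, 3 higher and 8 lower, with a median of -0.10. Il1b was 3.74-fold higher, from a signal of 20.7 to 81.1, and had a difference of 0.64 after normexp. Some of its 7 usable spots lay in damaged areas. Il10 was at least 3.03-fold lower, with a signal of 45.5 on the DMSO array, and had -0.50 after normexp. Rela, a subunit of NF-κB, had -0.16, and Il6ra -0.10. In the list of lipocalin and iron genes, 10 of 11 were measured, 5 higher and 5 lower. Beside Lcn2 and Ltf, the ferritin chains Fth1 and Ftl1 had -0.04 and -0.02, the phagosomal metal transporter Slc11a1 0.22 and the heme oxygenase Hmox1 0.13.

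Most measured markers of several other cell types were lower along with the granule protein genes, and their part in the result was not tested. Of 16 bone marrow stromal markers, 14 were measured, 11 lower and 3 higher, with a median of -0.65 and summed signals of 41212 with DMSO and 23294 with GW4064. Postn and Acta2 were 2-fold or more lower, Col1a2 had -0.99, Sparc -0.80 and Col1a1 -0.72. Of 19 markers of eosinophils, basophils and mast cells, 11 were measured, 4 higher and 7 lower, with a median of -0.29 and summed signals of 8462 and 7302. Prg2, encoding eosinophil major basic protein, read 132 and 49.9, a difference of -1.47, with 2 other 8-fold differences nearby. Ear1 and Ear2, near-identical ribonuclease genes whose probes may share signal, had -0.72 and -0.67, while Siglecf had 0.10, Ccr3 0.30 and Tpsb2 0.51. Epx, Prg3, Cpa3, Fcer1a and Mcpt8 were not well above background on either array.

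Of 6 monocyte markers, 5 were measured, 3 lower and 2 higher, with summed signals of 152806 and 167222, nearly all from Chil3. Ly6c2 had no matched probe. F13a1 read 87.6 and 25.2, a difference of -1.86 (-0.62 after normexp) at 1 of its 2 probes, the other being too dim to measure. Plac8 and Ccr2 had -0.74 and -0.41. Of 6 megakaryocyte markers 5 were lower, with a median of -0.85. Ppbp, a platelet chemokine, had -1.66, whereas Pf4 had 0.26, and the summed signals were 25212 and 31102. Itga2b and Gp9 were at least 2.21-fold and at least 2.31-fold lower. Of 8 erythroid markers, 5 were measured, 4 lower and 1 higher, with summed signals of 245 and 186. Klf1 was at least 3.75-fold lower and Hbb-bt at least 1.61-fold higher, at spots with 6 and 3 other 8-fold differences nearby. Of 7 B cell markers, 3 were measured and all were lower, with summed signals of 522 and 439. Of 8 T and NK cell markers, 3 were measured, 2 lower and 1 higher, with summed signals of 1688 and 1509. Of 8 dendritic cell markers, 5 were measured, 3 lower and 2 higher, with summed signals of 223402 and 196630. Of 9 cell cycle genes, all measured, 8 were higher and 1 was lower, with a median of 0.18.

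Of the 20144 genes that could be named, 12578 were well above background on both arrays. Of 12 listed macrophage markers 11 had a probe, and all 11 were among them. With so many genes detected, that count alone does not bear out the macrophage label of the cultures. Of these 11 markers, 6 were higher and 5 lower with GW4064, with a median of 0.06, and Csf1r and Adgre1 had -0.24 and -0.25. All 8 M2 genes were measured too. Of these 6 were higher and 2 lower, and Arg1 had the largest difference, 3.82.

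**Figure D5:**
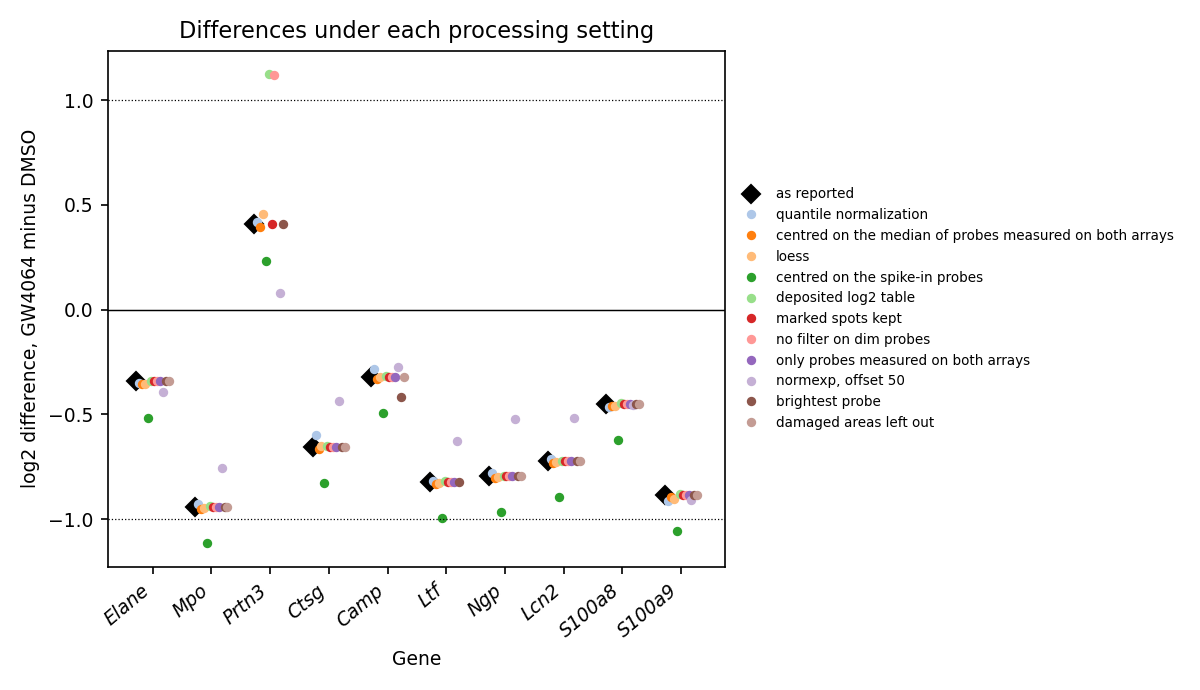
Log2 difference (GW4064 minus DMSO) of each of the 10 genes as reported (black diamonds) and under 11 other processing settings (coloured dots). For 9 genes every dot lies below 0, and for Prtn3 the values run from 0.08 to 1.12.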

How the data were processed

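Total RNA of 1 BMDM culture with DMSO and 1 with GW4064 was read on 1-colour Agilent 44K mouse arrays, 1 array each, which shared a slide and a scan. Per array, the authors deposited the intensity of each spot after Agilent Feature Extraction 10.7.1.1 had subtracted background and removed spatial trends, with its error, and the median intensity of spot and local background. They also deposited a log2 table. For 39200 probes its column difference equalled the one computed here apart from a constant of 0.0022, so that its direction and scale are known, while the per-probe baseline (column medians of 0.03 and -0.05) is not. The study names GeneSpring 14 and no normalization.

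Here the 75th percentile of the 43020 non-control spots of each array was subtracted on the log2 scale. Spots marked uneven or as outliers among copies were left out, and copies of a probe were averaged. Where a probe passed the scanner's background test on only 1 array, the other value was raised, if lower, to the lowest passing signal there (15.7 with DMSO, 15.1 with GW4064), which gives an "at least" fold. Such a bound holds for this background correction only, and normexp can give a smaller difference. Probes above background on neither array were left out. Symbols came from RefSeq transcripts of GRCm38.p6 and named 26445 probes, and a gene is the mean of its probes. Differences are given by size (2-fold, with 1.5-fold beside it), with no test. The 10 members, 14 gene lists and 12 marker lists were chosen with earlier results of these data known. Named from each list were all genes 2-fold or more different, the 4 brightest, and all C/EBP factors and retinoic acid receptors. Lyz2, Ctsc, Mmp8, Hp, Pglyrp1, Slc22a17, Ager, S100b, Gfi1, Ms4a3, Kit, Stfa2, Cxcr2, the chromosomal neighbours and the genes named as not above background were added after their values were seen. Some listed genes are not reported here by name. For marker lists, counts, summed signals and some genes are given. The script was tested on the DMSO array and a simulated GW4064 array made from it (39228 probes). All 200 planted 4-fold changes were recovered. They were planted in probes with a DMSO signal above 200, so that dim probes, bounds and smaller changes were not tested. Normexp ran in limma 3.58.1 (R 4.3.3), all else in Python 3.11.15 with pandas 2.3.3 and numpy 2.4.6, and figures in matplotlib 3.10.9.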

Additional observations from a re-analysis of the deposited data

How the results depend on the processing

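No paired analysis was possible because neither condition had a second array, which also barred leaving one out. The 9 granule protein genes measured on both arrays kept a negative difference under all settings that measured them, and Prtn3 stayed positive, between 0.08 and 1.12. The count of members 2-fold or more higher was 1 in place of 0 (Prtn3 counted at its bound) with the deposited log2 table and without a filter on dim probes, in both cases Prtn3, whose difference is 1.12 without the bound. The count 2-fold or more lower was 2 in place of 0 when centred on the spike-in RNA, and 6 at a threshold of 1.5-fold. Among the 119 other measured genes of the granule and neutrophil lists, 13 differed 2-fold or more. That number was 26 without a filter on dim probes, 7 with only probes measured on both arrays and 4 after normexp, the first 2 settings testing more and fewer genes by construction. Over all genes, 276 were 2-fold or more higher and 367 lower, of 13533. Without the filter these counts were 698 and 767 of 20060. With only probes measured on both arrays they were 107 and 164 of 12578, and after normexp 72 and 64 of 13533. Of 107 recomputed differences of single members, 3 moved by more than the scanner error. Of all genes past 2-fold, 42.9% were higher, against 30.2% when centred on the spike-in RNA. Depth on an array is signal over background, and it limits Prtn3, Ctsg and the second Camp probe most.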
